A study of Mus musculus with 2 samples.

Results

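Interferon-stimulated genes were followed as a set of 36 genes in single cells of the mouse colon. They were taken by symbol from the 31053 genes of the files, and all 36 had a unique molecular identifier (UMI, a count of 1 captured RNA molecule) in both libraries. The study holds 1 library for each of 2 groups of C57BL/6 mice, all wild-type: one given 10 mg/kg of THC, the cannabinoid chiefly behind the psychoactive effect of cannabis, and one given vehicle. Both libraries were made from colon. Epithelium was loosened with EDTA, the lamina propria was digested with enzymes and enriched on Percoll, and RNA was counted from transcript 5′ ends in droplets. The labels used here give no number of mice per library, no age or sex and no time after dosing. The THC files hold every barcode and the vehicle files a filtered list, so the same minimum of 1000 UMIs per cell was set for both. With 1 library per treatment nothing could be set against a spread between replicates, so no test was made, and the 95% intervals given in parentheses cover counting error only.

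Cells that sense viral nucleic acid release interferons. Type I interferons (alpha, beta) and type III interferons (lambda) activate a complex with STAT2 and IRF9, which binds the interferon-stimulated response element (ISRE). Interferon gamma acts through another element, the gamma-activated site (GAS). The induced genes code for RNA sensors, antiviral enzymes, large GTPases and the transcription factors that sustain the response. Many of them are also transcribed at a low, tonic level without infection, and in the gut this tone depends in part on the microbiota.

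Promoters are shown for the genes that led the module-rich cells and the fibroblast difference described below, because these genes are classical targets of the response. RefSeq (build GRCm38.p6) gave a promoter, 250 bases before to 50 bases after the start, for 28 of the 36 genes. The ISRE core was searched as GAAANNGAAA on both strands and the GAS core as TTCNNNGAA, which reads the same on both. The ISRE core stood in 17 of the 28 genes (60.7%), against 3.99% of all 27025 genes in the table. The GAS core stood in 8 of 28 (28.6%), against 9.55%. In 5 genes both were found, and the letters of one could overlap those of the other. In the stretches below, read 5′ to 3′ along the gene, capitals mark the ISRE core on either strand.
Isg15, chr4:156200845-156200926, minus strand: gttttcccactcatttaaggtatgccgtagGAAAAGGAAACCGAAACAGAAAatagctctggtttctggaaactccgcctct
Ifit1, chr19:34640755-34640843, plus strand: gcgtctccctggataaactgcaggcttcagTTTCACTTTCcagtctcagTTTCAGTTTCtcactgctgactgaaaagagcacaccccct
Ifit3, chr19:34583343-34583446, plus strand: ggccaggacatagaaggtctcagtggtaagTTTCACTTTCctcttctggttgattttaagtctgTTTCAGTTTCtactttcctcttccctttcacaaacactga
Ifit3b, chr19:34607739-34607842, plus strand: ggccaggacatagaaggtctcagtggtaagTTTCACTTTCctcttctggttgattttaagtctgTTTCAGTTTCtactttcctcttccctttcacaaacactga
Rsad2, chr12:26456533-26456602, minus strand: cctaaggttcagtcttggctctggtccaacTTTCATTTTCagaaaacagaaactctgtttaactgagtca
Gbp2, chr3:142620574-142620643, plus strand: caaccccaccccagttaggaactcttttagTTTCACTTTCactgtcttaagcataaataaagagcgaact
Isg15 held 3 overlapping matches and Ifit1, Ifit3 and Ifit3b held 2 each. The printed stretches of Ifit3 and Ifit3b, a pair of near-identical neighbouring genes, do not differ in any letter.

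Irf1 and Igtp stand for the other element, and in these stretches capitals mark the GAS core.
Irf1, chr11:53769894-53769962, plus strand: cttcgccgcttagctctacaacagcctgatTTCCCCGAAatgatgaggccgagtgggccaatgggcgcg
Igtp, chr11:58199481-58199549, plus strand: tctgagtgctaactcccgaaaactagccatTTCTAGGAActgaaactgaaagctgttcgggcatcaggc
Irf1 held the GAS core and no ISRE core, while Igtp held 1 of each. Neither core was found in the windows of Irf7, Oasl2 or Ifi47. A match is a run of letters and was not tested as a binding site.

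After filtering, 395 THC and 629 vehicle cells remained, with medians of 8529 and 7102 UMIs, and no barcode was shared by the kept cells of both libraries. Clustering without the 36 genes gave 12 classes, each called by its markers with the ending "-like", and 3 unnamed clusters with 19 THC and 40 vehicle cells. In 11 of the 12 classes every marker of the class was detected in both libraries. The class called natural killer (NK) and innate lymphoid-like held 3 of its 8 markers, with Ncr1, Klrb1c, Il22 and Gzma among those at 0, and was led by Il5, Il13 and Gata3.

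Blood endothelial-like cells held the highest level of the module in both libraries. The 36 genes made up 8312 CPM (UMIs per 1000000 UMIs of the class; 7089 to 9686) in 4 THC cells and 9888 (8971 to 10873) in 7 vehicle cells. Cell by cell the THC values ran from 1184 to 15960, with a median of 9635, and the vehicle values from 2274 to 29320, with a median of 8617. The 2 ranges overlapped. All 8 endothelial markers were detected, and 3 of 4 THC and 7 of 7 vehicle cells lay above the median fibroblast-like cell.

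Next came the stroma and the macrophages. Fibroblast-like cells had 3320 CPM (3192 to 3452) over 98 THC cells and 2634 (2541 to 2729) over 158 vehicle cells. Lymphatic endothelial-like cells had 3078 (2700 to 3495) and 3351 (3061 to 3662), and macrophage-like cells 2905 (2595 to 3242) and 2089 (1900 to 2291). In the THC library these 3 intervals overlapped, and in the vehicle library they did not. A single macrophage-like THC cell, module-rich as defined below, held 102 of the 319 module UMIs of that class. Without it the class had 2174 CPM (1894 to 2483). That interval overlaps the vehicle one of the class and lies below the THC ones of fibroblast-like and lymphatic-like cells. T-like cells had 1388 and 1343, plasma-like cells 1255 and 939, and B-like cells 1007 and 931.

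Smooth muscle-like cells had 716 CPM (649 to 789) with THC and 1197 (1114 to 1284) with vehicle, where 5 of 55 cells were rich in the module as defined below. Goblet-like cells had 692 and 656, dendritic-like cells 716 and 633, NK and innate lymphoid-like cells 433 and 566, and epithelial-like cells 509 (476 to 544) and 417 (387 to 449). Droplets of the THC library with 1 to 100 UMIs, which mostly hold free RNA, had 585 CPM (533 to 639). The module sums of epithelial-like and NK and innate lymphoid-like cells lay below that value. So did a contractile smooth muscle-like cluster, described below, at 444 CPM with THC. Goblet-like, dendritic-like and THC smooth muscle-like cells as a class lay close to it. A low sum in any of these was therefore not separable from free RNA. Such droplets were not in the vehicle files used here.

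**Figure D1:**
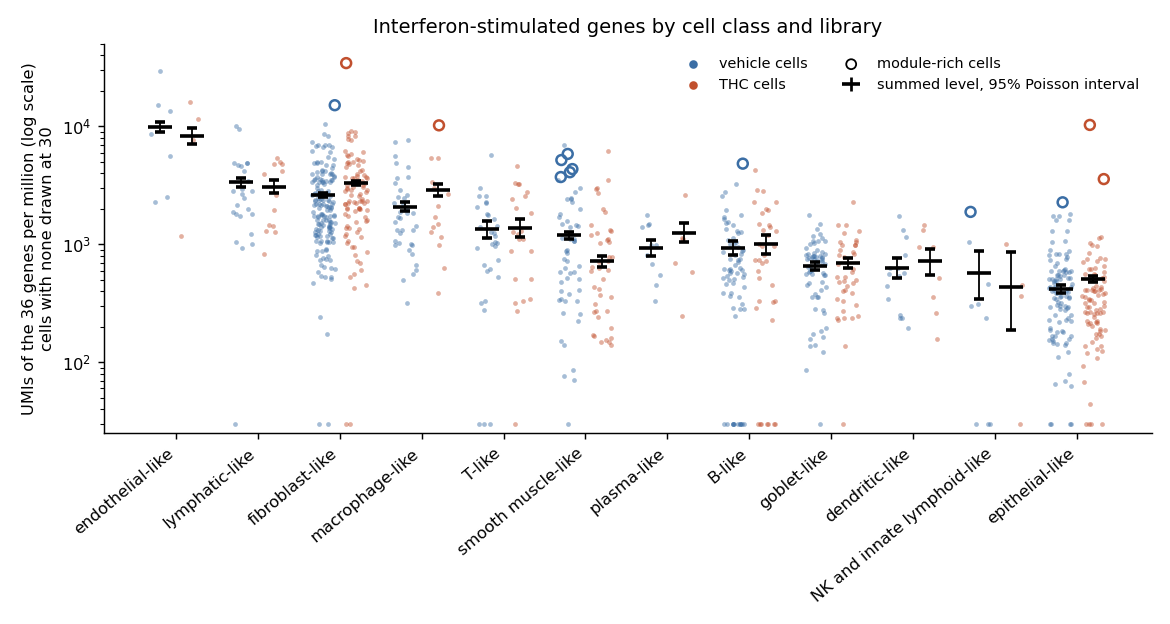
Module level of a cell in CPM (y, log scale) by class (x), vehicle left and THC right; each point is a cell, open circles are module-rich cells, and bars give the summed level with its 95% Poisson interval. Endothelial-like cells stand highest, at 9888 and 8312. The highest open circle is a fibroblast-like THC cell, and 1 vehicle smooth muscle-like cell that missed the UMI or gene minimum lies above the open circles of its class.

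Within the fibroblast-like class the level differed between clusters. A cluster led by Igfbp3, Sfrp1 and Adamdec1, the last a marker of lamina propria fibroblasts, had 4239 CPM with THC and 3206 with vehicle. It also held the 4 cells with enteric glia markers described below. Of these, 1 THC cell had 245 of the cluster's 1552 THC module UMIs, and 1 vehicle cell 100 of its 1862. A cluster with Pi16, Has1 and C3 had 2959 and 2248. A cluster with Bmp2, Nrg1 and Bmp7 had 1618 and 1640. Smooth muscle-like cells also split: a cluster led by Hhip had 1987 and 2625, and a contractile cluster with Actg2, Des and Cnn1 had 444 and 763.

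The genes did not share 1 class pattern. The highest class was endothelial-like for 20 of the 36 genes in the THC library and for 26 in the vehicle library, and for 17 in both. The others were highest in fibroblast-like, lymphatic-like, macrophage-like, plasma-like, goblet-like, T-like or B-like cells. The endothelial-like rank rested on 1 UMI (50.7 CPM) with THC for Oasl2, Gbp5, Dhx58 and Herc6. With vehicle it rested on 1 UMI (23.2 CPM) for Ifit3, Ifi44, Usp18 and Herc6. Comparisons here are of 1 gene across classes, not between genes.

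The transcription factors were broad. Irf1, an activator shared by the interferon gamma and tonic programmes, was at 1571 CPM in THC and 2066 in vehicle endothelial-like cells. It was at 1216 and 862 in lymphatic-like, 646 and 511 in fibroblast-like and 343 and 308 in goblet-like cells. A single cell held 71.0% of the THC endothelial UMIs of Irf1. Macrophage-like cells had 36.4 and 32.4 CPM. In epithelial-like cells Irf1 had 194 and 171, beside 180 in the free RNA, and it made up 38.1% and 41.1% of that class's module UMIs.

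Irf7, the factor that amplifies type I interferon production, was at 125 (97.6 to 158) and 83.3 (65.0 to 105) CPM in goblet-like cells. The goblet-like cell with the most Irf7 held 35.2% of its UMIs in that class with THC and 21.4% with vehicle. Endothelial-like cells had 50.7 and 325. Stat2, a transcription factor of the response to type I interferon, had 59 and 78 UMIs in all, with 22.4 and 23.3 CPM in fibroblast-like cells.

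The ISG15 system showed the same endothelial height. Isg15, a ubiquitin-like protein that is attached to other proteins, was at 862 (502 to 1380) and 1184 (881 to 1556) CPM there, in 3 of 4 and 6 of 7 cells. It was at 474 and 241 in macrophage-like, 168 and 239 in lymphatic-like, and 111 and 84.4 in fibroblast-like cells. Usp18, which removes ISG15, had 15 and 26 UMIs over all cells, and Herc6, the mouse ligase that attaches it, had 21 and 23.

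Among the IFIT genes, whose proteins bind foreign RNA, Ifit1 was at 203 and 580 CPM in endothelial-like cells. A single vehicle endothelial-like cell held 15 of the 43 vehicle UMIs of Ifit1. Over all cells Ifit1 had 87 THC and 43 vehicle UMIs, Ifit2 28 and 31, and Ifit3 64 and 35. Module-rich cells held 73.6% of the THC UMIs of Ifit1 and 70.3% of those of Ifit3, against 4.65% and 25.7% in the vehicle library. Reads of Ifit3 and Ifit3b may have been split between the pair. Ifit3b and Ifi44 had fewer than 20 UMIs over both libraries.

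Of the sensors, Ifih1 (MDA5) had 80 and 87 UMIs, Ddx58 (RIG-I) 62 and 93, Dhx58 16 and 16, and Zbp1, which binds Z-form nucleic acid, 35 and 36. As a group these 4 genes stood at 37.3 and 24.7 CPM in epithelial-like, 55.4 and 51.7 in fibroblast-like and 128 and 92.6 in macrophage-like cells. Oas1a, an oligoadenylate synthetase that switches on RNase L, had 46 and 51 UMIs. It was found in 27 of 86 THC and 23 of 106 vehicle epithelial-like cells, with 18.1 and 14.1 CPM beside 9.78 in the free RNA. Its relative Oasl2 had 42 and 49 UMIs, with 29.0 and 22.4 CPM in fibroblast-like cells.

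Among the other antiviral effectors, Ifi27l2a, a small membrane protein, was at 1391 (1308 to 1477) and 1276 (1212 to 1343) CPM in fibroblast-like cells, in 90 of 98 and 141 of 158 cells. Macrophage-like cells had 811 and 533, B-like cells 569 and 426, smooth muscle-like cells 263 and 591, and lymphatic-like cells 310 and 882. In endothelial-like cells, which led most of the module, it was at 0 in all 11 cells, and a count of 0 allows up to 152 and 69.6 CPM. Ifi27l2a made up 41.9% and 48.5% of the fibroblast module UMIs.

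Bst2 (tetherin), which holds budding virions on the cell surface, was at 915 (732 to 1129) and 700 (583 to 833) CPM in plasma-like cells, in 6 of 6 and 11 of 11 cells. It made up 72.9% and 74.6% of the module UMIs there. In the THC library 1 cell held 54.7% of them.

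Rsad2 (viperin), an enzyme that makes a chain-terminating nucleotide, was at 253 and 232 CPM in endothelial-like, 301 and 88.0 in macrophage-like and 24.6 and 70.2 in goblet-like cells. In goblet-like cells it was spread over 11 of 40 THC and 24 of 65 vehicle cells, and no cell held more than 21.4% of the UMIs. In macrophage-like cells 1 cell held 93.9% of the THC and 1 cell 52.6% of the vehicle UMIs. The free RNA held 7.34 CPM of Rsad2.

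The rest of this group was thinly counted. Cmpk2, a nucleotide kinase encoded beside Rsad2, had 21 and 25 UMIs, Mx1 9 and 18, Rtp4 78 and 80, Xaf1 54 and 70, and Samd9l 67 and 71. Ifi35 had 154 and 232, Parp14, an ADP-ribosyltransferase, 66 and 117, and Trim30a 34 and 57. Ifi35 was found in 116 THC and 176 vehicle cells, and the cell with the most held 3.25% and 2.16% of its UMIs.

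The interferon-inducible GTPases attack the vacuoles of intracellular microbes. The immunity-related GTPases together were at 2534 and 3017 CPM in endothelial-like, 401 and 204 in T-like and 282 and 171 in fibroblast-like cells. The guanylate-binding proteins together were at 1064 and 557 in endothelial-like, 246 and 164 in lymphatic-like, 200 and 102 in fibroblast-like and 182 and 208 in macrophage-like cells. Iigp1 was at 1064 (659 to 1627) and 1810 (1431 to 2260) CPM in endothelial-like cells and at 163 (136 to 195) and 89.6 (73.2 to 108) in fibroblast-like cells. It had 0 UMIs in goblet-like and T-like cells of both libraries. Ifi47 was at 862 and 487 CPM in endothelial-like cells, Irgm1 at 355 and 441, and Igtp at 253 and 279.

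T-like cells held Igtp at 226 and 156 CPM and Ifi47 at 164 and 19.5, the latter from 16 UMIs in 9 cells and 2 UMIs. A single T-like cell held 37.5% of the 16. Of the guanylate-binding proteins, Gbp2 was at 659 and 232 CPM in endothelial-like cells and 121 and 47.4 in fibroblast-like cells. A single THC endothelial-like cell held 92.3% of the Gbp2 UMIs of its class. Gbp3 had 49 and 75 UMIs over all cells, Gbp5 14 and 25, and Gbp7 74 and 89.

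**Figure D2:**
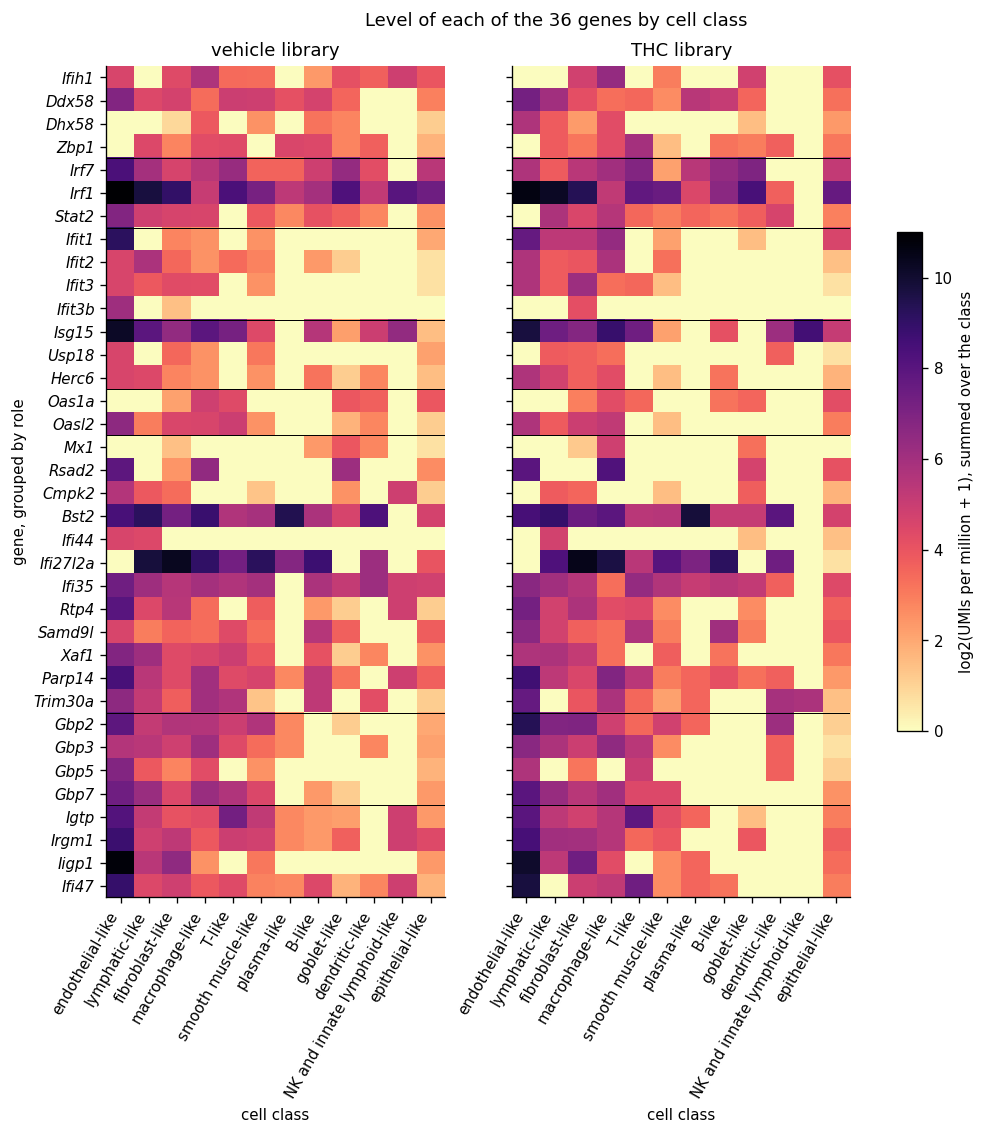
Level of each of the 36 genes (rows, grouped by role) in each class (columns), as log2 of summed CPM plus 1, vehicle left and THC right. Read along a row, most genes are darkest in endothelial-like cells, some of them there from 1 UMI. Ifi27l2a is at 0 in that class and is darkest in fibroblast-like cells, and Bst2 is darkest in plasma-like cells.

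Over all kept cells the module made up 1263 CPM (1230 to 1296) with THC and 1293 (1264 to 1323) with vehicle, intervals that overlapped. The UMIs were spread over cells unevenly. A cell was called module-rich with at least 10 module UMIs from at least 5 of the genes and a module share of at least 5 times the median of its class. By that rule 4 of 395 THC cells (1.01%; exact binomial interval 0.277 to 2.57) and 9 of 629 vehicle cells (1.43%; 0.656 to 2.70) were rich. Of the 9 vehicle cells, 5 were smooth muscle-like and lay in the cluster led by Hhip. With vehicle that whole cluster stood at 2625 CPM, above the 1197 of its class, so the class median sets a low limit for its cells. The 4 THC cells held 10.9% of the module UMIs of their library in 1.27% of all UMIs, and the 9 vehicle cells 4.51% in 1.19%.

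The limit divides a continuous score and marks no cell type. The lowest rich cells lay at 6.02 times the class median with THC and 5.14 times with vehicle, and the highest cells outside that met both the UMI and the gene minimum at 4.83 and 4.81 times. A further 2 THC and 1 vehicle cells passed 5 times, up to 8.51 and 9.68 times, but missed 1 or both minimums. Another 12 THC and 23 vehicle cells that met both minimums lay between 3 and 5 times. All 4 THC rich cells held 22 to 25 of the 36 genes, and 1 vehicle rich cell held 20 while the other 8 held 6 to 14. Breadth was not confined to rich cells: a vehicle endothelial-like cell and a vehicle fibroblast-like cell of 27739 UMIs held 24 genes each.

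**Figure D3:**
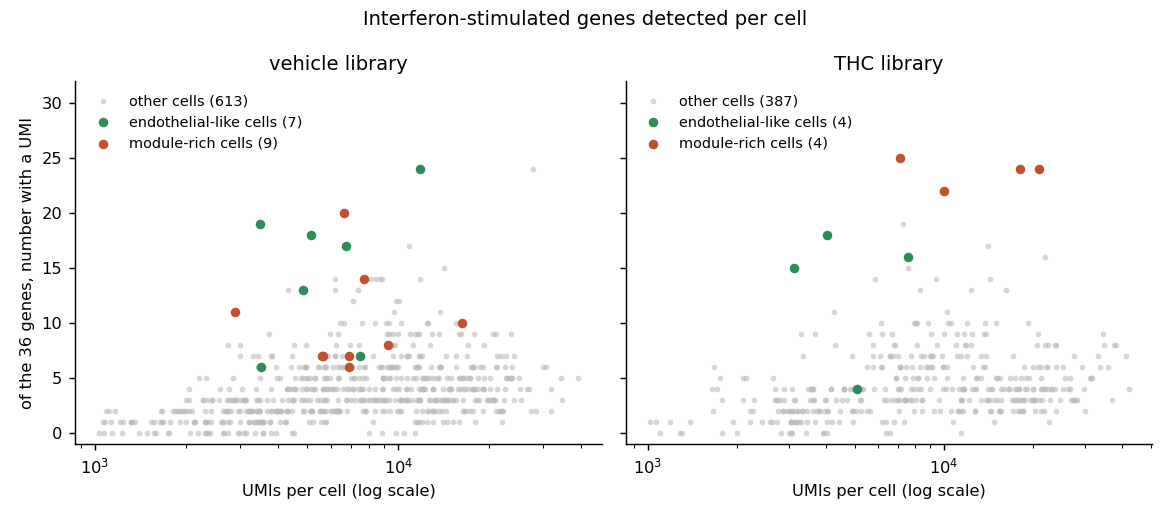
Number of the 36 genes with a UMI (y) against UMIs per cell (x, log scale) for each library; red points are module-rich cells and green points endothelial-like cells. The 4 THC rich cells stand at 22 to 25 genes, and 1 of the 9 vehicle rich cells reaches 20.

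THC cell 1 had the highest module share of all cells, with 245 of 7117 UMIs (3.44%) from 25 genes. Isg15 had 43 UMIs, Ifit3 43, Gbp2 27, Ifit1 26, Rtp4 18 and Irgm1 16. It was clustered as fibroblast-like, but it held 5 of 6 enteric glia markers (26 UMIs) and 3 of 12 fibroblast markers (9 UMIs). Vehicle cell 1, with 100 of 6609 UMIs from 20 genes, was alike: 5 of 6 glia markers (28 UMIs) and 3 of 12 fibroblast markers (7 UMIs). Its leading genes were Isg15 with 24 UMIs, Irf1 with 12 and Rtp4 with 11.

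Only 4 kept cells held at least 5 glia markers, 3 with THC and 1 with vehicle, and 2 of them are these rich cells. The other 2, both THC, held 7 of the genes each. They had 29 and 17 UMIs of Irf1 and none of Isg15 or Ifit1. Irf1 was counted in all 4 glia-marker cells, with 17 UMIs in THC cell 1 and 12 in vehicle cell 1, and Isg15 and Ifit1 only in these 2 rich cells. The rule for rich cells itself uses these genes, so this is a description of 4 cells.

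THC cell 2 was epithelial-like and held 186 module UMIs from 24 genes. It had 17 of 18 epithelial markers and at most 1 marker of any unrelated list. Lists of related epithelial cells, such as goblet, were left out of that count. Isg15 had 48, Ifit1 35, Rtp4 14, Irf7 13, Oasl2 9 and Zbp1 9, and no guanylate-binding protein or Iigp1 was counted. THC cell 4 was macrophage-like, with 10 of 10 macrophage markers, and held 102 from 22 genes, led by Rsad2 with 31 and Isg15 with 20. The leading gene differed between these 2 cells, and Isg15 was among the first 2 in both.

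THC cell 3, also epithelial-like, held 75 module UMIs from 24 genes, led by Iigp1 with 16 and Irf1 with 11, which are the endothelial pattern above. Beside 17 of 18 epithelial markers it held 7 of 8 endothelial markers (62 UMIs), and it was not called a doublet; whether 2 cells shared the droplet was not tested. Vehicle cell 4, clustered as epithelial-like, held 11 of 12 fibroblast markers (229 UMIs) and 2 of 18 epithelial markers, and was led by Iigp1 with 7. Its 2272 CPM were 6.29 times the epithelial-like median. Vehicle fibroblast-like cells had 2634 CPM as a sum and a median of 2023, so the cell was not rich beside them. THC cell 3 and vehicle cell 4 held every Iigp1 UMI of the epithelial-like class.

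The remaining vehicle cells were narrower. Vehicle cell 2, smooth muscle-like, had 14 genes with 17 UMIs of Ifi27l2a and 12 of Isg15. In 4 further smooth muscle-like cells, all of the Hhip cluster, Ifi27l2a and Irf1 made up 47.6% to 83.3% of the module UMIs. The 5 smooth muscle-like rich cells had 3721 to 5843 CPM, and all vehicle cells of the Hhip cluster together 2625. A B-like cell had 11 genes with 14 UMIs, and an NK and innate lymphoid-like cell had 6 with 13. Against the median of the cluster in place of the class, 5 vehicle cells were rich.

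**Figure D4:**
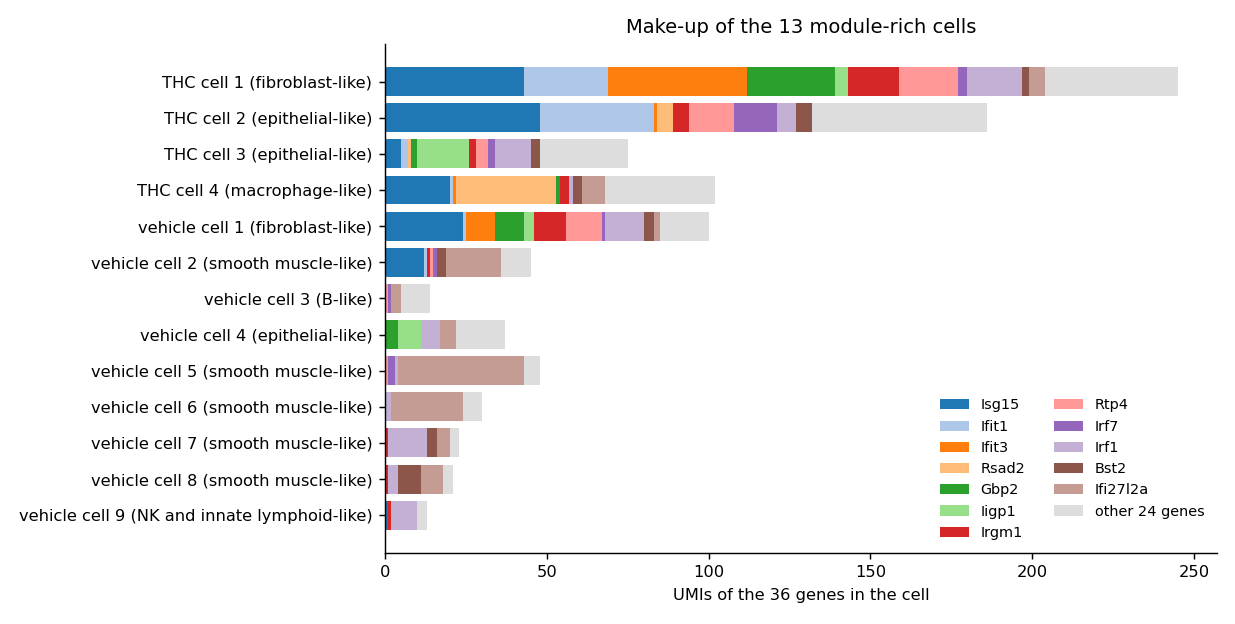
UMIs of the 36 genes in each of the 13 module-rich cells (bars), coloured by gene. THC cells 1 and 2 are led by Isg15, with 43 and 48 UMIs, THC cell 4 by Rsad2, with 31, and vehicle cells 5 and 6 by Ifi27l2a.

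Genes outside the set were ranked by their UMIs in the 13 rich cells over those expected from other cells of the same class and library. The 10 highest, among genes with at least 15 UMIs, were Vwa1, Arid5a, H2-Q4, Prnp, Marcksl1, Fam3c, Nnmt, Prdx6, Agt and Cebpd. H2-Q4, an MHC class I gene, had 99 UMIs against 9.51 expected, in 9 of 13 cells. Prnp had 131 against 13.3 in 7 cells, and Vwa1 22 against 1.39 in 5 cells. The glia-marker and endothelial-marker cells are among the 13, and the part of cell type in these ratios was not tested.

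In all, 2 classes had 50 cells or more in both libraries and allowed a ratio of THC over vehicle. A sum over a class does not by itself tell more RNA per cell from more expressing cells. Shares of cells with a UMI are given below for Gbp2, Gbp7 and Iigp1. In fibroblast-like cells the module was higher in the THC library by 0.33 on the log2 scale (0.26 to 0.41), and without the rich cell of each library by 0.24 (0.16 to 0.32). In epithelial-like cells it was higher by 0.29 (0.14 to 0.43) with all cells. Without the 2 THC and 1 vehicle rich cells the value was -0.13 (-0.29 to 0.03), and without the richest cell of each library 0.02. The epithelial difference rested on the 2 THC rich cells. Without rich cells the THC sum went from 873 to 612 UMIs and the vehicle sum from 708 to 671. The fibroblast difference kept its sign without the rich cell of each library, at 0.24 in place of 0.33.

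Gene by gene in fibroblast-like cells, 31 of the 36 genes had at least 10 UMIs and were compared. At least 2-fold higher in the THC library were 5 (16.1%), against 4.97% of all 10081 genes compared in that class, and 0 were at least 2-fold lower, against 4.2%. The median was 0.39 over the 31 genes and 0.03 over all genes. Without the rich cells 2 of 29 were 2-fold higher and the median was 0.27.

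The 5 genes split into 2 kinds. Ifit1 had 29 THC and 7 vehicle UMIs, a log2 ratio of 2.66 (1.44 to 4.10), and 3 and 6 without the rich cells. Ifit3 went from 1.88 (1.14 to 2.67) to 0.24 (-1.11 to 1.54), and Ifit3b likewise from 13 and 2 UMIs to 1 and 2. Both GTPases among the 5 stayed: Gbp2 had 92 and 55 UMIs, 1.36 (0.86 to 1.87), and 1.12 (0.55 to 1.70) without the rich cells. Gbp7 had 32 and 24 UMIs, 1.03 (0.22 to 1.86), and 1.08 without them.

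Below 2-fold, Iigp1 had 124 and 104 UMIs in fibroblast-like cells, 0.87 (0.48 to 1.26), and 0.87 without the rich cells, with no cell above 12.5% of either library's UMIs. Irf1 was at 0.34 (0.16 to 0.51) and Irgm1 at 0.74 (0.12 to 1.36), or 0.53 (-0.21 to 1.27) without the rich cells. Ifi27l2a was at 0.12 (0.01 to 0.24), and at -0.01 with a minimum of 2500 UMIs per cell. Isg15 was at 0.39 (-0.05 to 0.83), and at -0.23 without the rich cells. Gbp2 was at 0.69 with the same minimum and at 0.84 with each library clustered separately. Iigp1 was at 1.36 with libraries clustered separately and 1.69 with cells thinned to 1000 UMIs.

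In epithelial-like cells 23 genes were compared. At least 2-fold higher in the THC library were 8 (34.8%), against 2.36% of all 10869 genes compared, and 2 (8.70%) were at least 2-fold lower, against 5.9%. The median was 0.43 over the 23 genes and -0.02 over all genes. Without the rich cells 16 genes kept at least 10 UMIs, of which 2 were 2-fold higher and 3 lower, and their median was -0.03.

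THC cells 2 and 3 held most of the epithelial excess. Isg15 had 57 THC and 3 vehicle UMIs, and 4 and 3 without the rich cells. Ifit1 went from 39 and 5 to 2 and 5, Rtp4 from 20 and 2 to 2 and 2, and Oasl2 from 12 and 2 to 3 and 2. Rsad2 kept most of its difference: it had 28 and 9 UMIs, a log2 ratio of 1.62 (0.50 to 2.89), and 1.29 (0.12 to 2.60) without the rich cells. With cells of up to 20% mitochondrial UMIs Rsad2 was at 0.37.

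Lower in THC epithelial-like cells were Ifi27l2a, with 1 UMI against 26, and Parp14, with 7 against 20, a log2 ratio of -1.53 (-3.01 to -0.23). Irgm1 had 21 and 34 UMIs, and 14 and 34 without the rich cells, or -1.28 (-2.29 to -0.34). Of the 26 vehicle UMIs of Ifi27l2a 1 cell held 46.2%, and vehicle cell 4, with its fibroblast markers, held 5. With cells of up to 20% mitochondrial UMIs the log2 ratio of Ifi27l2a was -0.41.

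**Figure D5:**
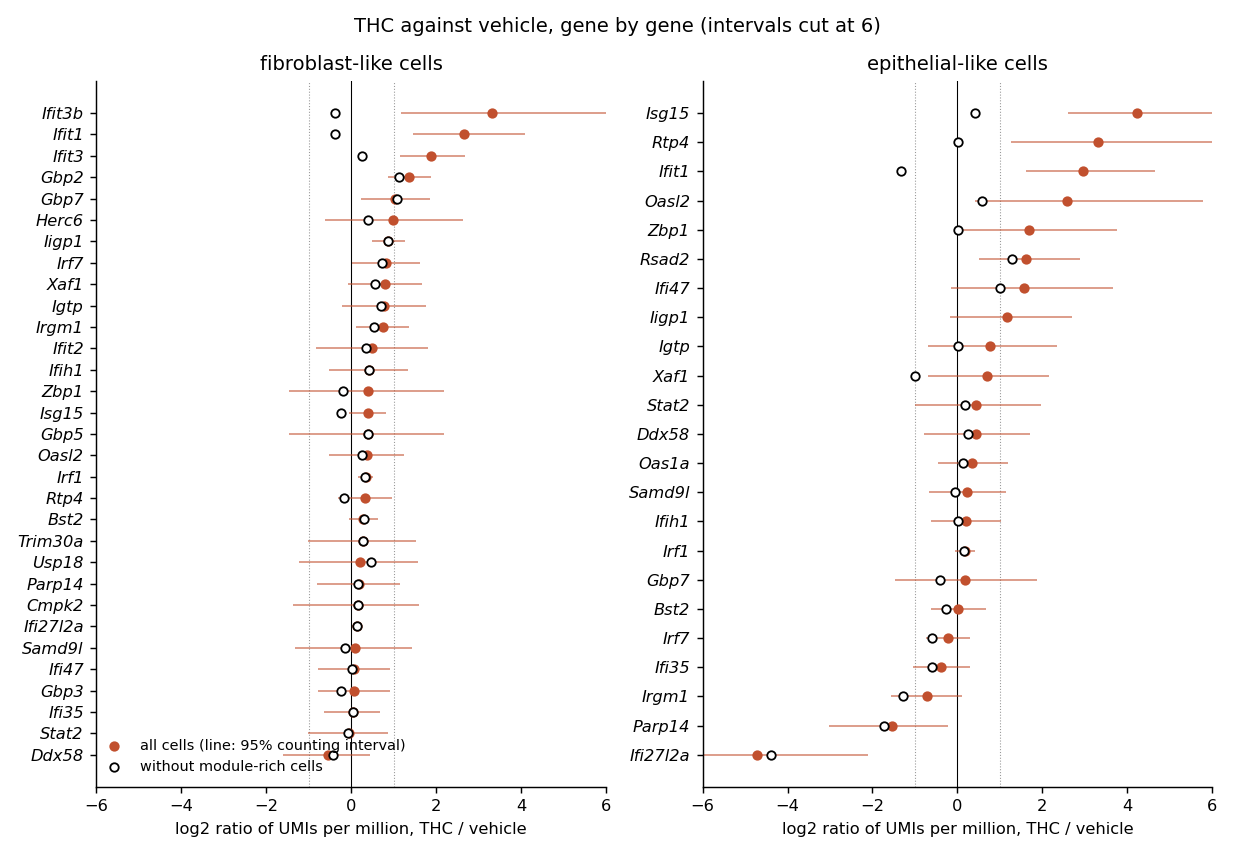
Log2 ratio of CPM, THC over vehicle (x), for each gene with at least 10 UMIs in the class (y); red points are all cells with 95% counting intervals and open points leave out the module-rich cells. Ifit1, Ifit3 and Ifit3b in fibroblast-like cells and Isg15, Rtp4, Ifit1 and Oasl2 in epithelial-like cells move towards 0 or below without those cells, while Gbp2, Gbp7 and Iigp1 in fibroblast-like cells hardly move.

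Interferon transcripts themselves were scarce. Ifna1, Ifna2, Ifna4, Ifna5, Ifnk, Ifne, Ifnl2 and Ifnl3 had 0 UMIs in both libraries, which allows up to 0.681 CPM with THC and 0.528 with vehicle. Ifnb1 had 2 UMIs, both in 1 vehicle macrophage-like cell. Ifng, the gamma interferon of T and NK cells, had 26 UMIs in 6 THC cells and 1 UMI in 1 vehicle cell. Of the 26, T-like cells held 17 and a single macrophage-like cell 9. No module-rich cell held a UMI of Ifnb1 or Ifng.

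Receptors and signalling genes were measured in every class. Ifngr1 had 943 and 1250 UMIs and was highest in T-like cells, at 2189 and 2306 CPM, and Ifnar2 had 247 and 415 and was highest in endothelial-like cells, at 304 and 279. Ifnlr1, the lambda receptor, had 17 and 11 UMIs and was highest in epithelial-like cells, at 6.41 and 4.71 CPM. Of the 11 genes of this list, 10 were compared in fibroblast-like cells and 1, Tyk2, was 2-fold higher, with 10 and 3 UMIs, at a median of 0.18; over all genes 4.97% were 2-fold higher there. All 11 were compared in epithelial-like cells, where 1, Ifnar1, was 2-fold lower at -1.39 (-2.36 to -0.50) and the median was -0.001; over all genes 5.9% were 2-fold lower there. With 10 and 11 genes compared, both counts are close to these shares.

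Irf9, the DNA-binding partner of STAT2, had 77 and 149 UMIs, and THC cell 1, with 245 module UMIs, held 0 of them. THC fibroblast-like cells had 27.7 CPM of Irf9, so a 0 in a cell of 7117 UMIs does not show that the transcript was absent. Among the sensing adaptors, Tmem173 (STING) was at 862 and 162 CPM in endothelial-like cells, from 17 UMIs in 3 THC cells and 7 in 3 vehicle cells. A single THC endothelial-like cell held 12.7% of all 79 THC UMIs of Tmem173, and with that most of the 17 of its class. In epithelial-like cells the log2 ratio of Tmem173 was -1.60 (-2.96 to -0.40). Of this list 2 of 8 genes compared were 2-fold lower in epithelial-like cells (5.9% over all genes), at a median of 0.14, and 0 of 7 differed 2-fold in fibroblast-like cells, at a median of 0.38.

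Of 25 further targets 24 were analysed, and Cxcl11 was not analysed here. In fibroblast-like cells 21 were compared, with a median of 0.15, and 1, the chemokine Cxcl9, was 2-fold higher with 27 and 3 UMIs, in 3 THC and 3 vehicle cells (4.97% over all genes). In epithelial-like cells 19 were compared, with a median of -0.16, and 1, Cxcl10, was 2-fold lower (5.9% over all genes). Both counts are near the share over all genes. Antigen-processing genes lay within 2-fold: in fibroblast-like cells Psme1 was at 0.43 (0.10 to 0.76), Tap1 at 0.11 (-0.71 to 0.91) and B2m at -0.15 (-0.33 to 0.03). Of 4 inhibitors of the pathway, 2 were compared in fibroblast-like cells (median -0.17) and 4 in epithelial-like cells (median -0.22), and 0 differed 2-fold in either. The inhibitors Socs1 and Socs3 were at -0.50 (-0.97 to -0.05) and 0.16 (0.04 to 0.28) in fibroblast-like cells.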

How the data were processed

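Droplet RNA counts of 1 THC and 1 vehicle library were analysed. The deposited matrices hold raw UMI counts per gene and barcode, made by the authors with Cell Ranger 3.0.2, per the file headers. Seurat and bcl2fastq stand in the submitters' processing notes. The deposited feature and barcode lists, of other content, served only to name genes and cells. No source used here gives the genome build of the counting, so coordinates are printed only for the RefSeq promoters. The THC matrix held all 737280 barcodes and the vehicle matrix 973, with at least 502 UMIs each, so equal minimums were set here.

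Kept barcodes had at least 1000 UMIs, 200 genes and under 10% mitochondrial UMIs, which removed 232 THC and 281 vehicle barcodes, and scrublet removed 1 doublet per library. After this, 7 THC and 13 vehicle cells with at least 5 markers of an unrelated list remained, so doublets may be among the cells. Cells were scaled to 10000 UMIs, log-transformed and clustered in scanpy 1.11.5 (2000 variable genes, 30 components, 15 neighbours, Leiden resolution 1) without the 36 genes, pathway genes, sex-linked, ribosomal and mitochondrial genes, and antigen receptor genes. A class needed 3 markers detected in 10% of the cluster and 1 log2 unit above other cells. Levels are summed UMIs per 1000000 (CPM) with exact Poisson intervals, ratios carry exact conditional Poisson intervals, and shares exact binomial ones. Total kept depth was 4407754 THC and 5677788 vehicle UMIs. The members, marker and pathway lists were chosen with earlier results of these data known. Members with at least 20 UMIs and pathway genes with at least 10 UMIs could be named, as could the 10 genes with the highest ratio among those with at least 15 UMIs and found in at least 1 of every 3 rich cells. Scripts were tested on simulated data. No paired analysis was possible because each treatment has 1 library.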

Additional observations from a re-analysis of the deposited data

Results flagged for a closer look

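In 2 genes the difference between THC and vehicle pointed in opposite directions in the epithelial-like and fibroblast-like classes, with both counting intervals away from 0. The difference between the classes was not tested. Ifi27l2a had a log2 ratio of -4.72 (-10.07 to -2.11) in epithelial-like cells, from 1 and 26 UMIs, -0.41 with cells of up to 20% mitochondrial UMIs, and 0.12 (0.01 to 0.24) in fibroblast-like cells. With a minimum of 2500 UMIs per cell the fibroblast value was -0.014, so the directions were then not opposite. Its level in the free RNA of the THC library was 101 CPM, above the 0.583 and 15.3 CPM of epithelial-like cells. Cxcl10, a chemokine that draws T cells and is no member of the set, was at -1.70 (-2.17 to -1.24) in epithelial-like cells, from 53 and 170 UMIs. In goblet-like cells, also of the epithelium, it had 86 THC and 11 vehicle UMIs, or 151 and 13.1 CPM, the opposite direction. In fibroblast-like cells it was at 0.94 (0.81 to 1.08), from 1024 UMIs in 36 THC cells and 816 in 60 vehicle cells.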

How the results depend on the processing

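Endothelial-like cells were the highest class in every alternative that named such a class. The THC library clustered alone had none, and with under 5% mitochondrial UMIs no epithelial-like class formed. The epithelial log2 ratio (0.29) was -0.31 with cells thinned to 1000 UMIs and -0.13 without module-rich cells, both reversed, and 0.14 with up to 20% mitochondrial UMIs, 0.11 as a mean of per-cell CPM and 0.018 without the richest cell of each library. The fibroblast ratio (0.33) was 0.47 with libraries clustered apart, 0.24 without the richest or the rich cells and 0.22 without cells holding at least 5 markers of an unrelated list, an alternative chosen after seeing the data. Genes 2-fold higher in epithelial-like cells (8) numbered 0 when thinned, 2 without rich cells and 3 with at least 30 UMIs. Those in fibroblast-like cells (5) numbered 10 with libraries clustered apart and 2 when thinned, without rich cells or without unrelated-marker cells. Genes 2-fold lower in epithelial-like cells (2) numbered 1 with up to 20% mitochondrial UMIs, when thinned or without unrelated-marker cells, and 0 with at least 30 UMIs. The cause was not tested, except that thinning and higher minimums leave fewer UMIs.

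Epithelial levels were 544 CPM (THC) and 494 (vehicle) with up to 20% mitochondrial UMIs, and 465 and 575 when thinned. Fibroblast levels were 3543 (THC, under 5% mitochondrial), 3646 (THC, libraries apart), 2988 (THC, without unrelated-marker cells), 2730 (vehicle, 2500 UMIs) and 2506 (vehicle, thinned). Rich cells in the THC library (4) numbered 16 at 3 times and 2 at 10 times the class median, and 2 without unrelated-marker cells. In the vehicle library (9) they numbered 32 at 3 times, 0 at 10 times, and 5 with under 5% mitochondrial UMIs, when thinned, with at least 8 genes or against the cluster median. The Ifi27l2a fibroblast ratio reversed to -0.014 with 2500 UMIs. Across the values of single genes under these settings, 524 stayed within their counting interval, 18 moved beyond it and 1 reversed.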
